A study of Homo sapiens with 4 samples.

Results

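The ubiquitin-specific proteases other than USP1, USP12 and USP46 were followed by their messenger RNA in A549 cells, a human lung adenocarcinoma line, with and without overexpression of USP12. The members were all genes of the deposited count files with a symbol made of USP and a number, without those 3 genes, which left 46 of the 50868 genes listed. This pattern also leaves out USP9X and the USP17L repeats. RNA was sequenced in 2 libraries of control cells, which carried the empty vector, and in 2 libraries of cells overexpressing USP12 from that vector. The labels name no other treatment for either group and do not say whether the 2 libraries of a group came from separate cultures, so p-values measure the spread between these libraries, which may be technical. USP12 came from a vector in a single cell line, so the measured levels describe cells far above the native amount of this enzyme.

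Ubiquitin-specific proteases are the largest family of deubiquitinases, cysteine proteases that cut ubiquitin from proteins and so oppose the ubiquitin ligases. A catalytic fold is shared across the family, while the regions around it differ and direct each enzyme to its substrates, which lie in chromatin, the proteasome, endosomes, mitochondria and many signalling pathways. Their abundance is set by transcription as well as by binding partners, and here only the transcript level was measured.

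The libraries held between 14280081 and 16305356 counts, of which between 0.147% and 0.229% fell on the 46 members. USP12 had 15.2 and 34.4 CPM, which are counts brought to one library size with edgeR's TMM factors, in the controls and 1745 and 2235 CPM with USP12. The 10 most abundant genes took 13.8% and 14.3% of the counts in the controls, and 24.4% and 22.1% with USP12. All 9 epithelial and A549 markers examined were expressed, with summed levels of 18712 and 14904 CPM in the controls against 14539 and 13838 CPM with USP12. CDKN2A, which is deleted in A549 cells, had 0 counts in the 4 libraries. KRT19 among the 9 markers met the study's criterion for lower expression, given below (436.6 and 113.9 CPM against 68.7 and 55.9 CPM). Both USP12 libraries lay below both controls for 4 of the 9 markers, where 17% of all genes tested did so. They lay above for 1, where 19.5% did so. Alveolar type 2 markers summed to 0.378 CPM at most with SFTPB at 0 counts throughout, and of the leukocyte markers CD68 had between 46.8 and 79 CPM while CD3E was at 0 and PTPRC at 1 count or fewer. Endothelial markers summed to 15.4 and 8.59 CPM in the controls against 0.432 and 1.32 CPM with USP12, and fibroblast markers to 16.1, 2.60, 20.0 and 15.9 CPM in the same order. Of the 3 endothelial markers PECAM1 and CDH5 met the same criterion and VWF had 3 counts or fewer, and of the 3 fibroblast markers 0 did. The part of these genes in the results below was not tested. In RNA from whole cultures, fewer cells that express a gene and less RNA per cell cannot be told apart.

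Levels were compared between members as RPKM, CPM divided by the annotated exon length in kilobases, and the means ran from 63.2 RPKM for USP5 to 0.00479 RPKM for USP29. USP5, which takes apart free ubiquitin chains, stood first with 82.6 and 50.6 RPKM in control replicates 1 and 2 and 67.4 and 52.1 RPKM in USP12 replicates 1 and 2. USP22, the deubiquitinase of the SAGA chromatin complex, followed with 45.7, 40.7, 54.6 and 59.6 RPKM in the same order of libraries, a range that overlaps that of USP5. USP11, an enzyme of DNA repair and TGF-beta signalling, had 28.4, 15.3, 23.7 and 24.0 RPKM, below every library of USP22. USP39, a splicing factor, had 16.6, 14.1, 19.0 and 17.9 RPKM, and USP10, which acts on p53 and in stress granules, had 5.457, 14.02, 12.04 and 14.28 RPKM. The ranges of USP11 and USP39 overlapped, and so did those of USP39 and USP10. From USP3 with a mean of 10.95 RPKM downward, the means fell in small steps to 0.174 RPKM for USP6. The order closed with USP44, USP50, USP26 and USP29, at means of 0.0973 RPKM or less.

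Between 41 and 44 of the 46 members had more than 3 counts in a library, a floor that corresponds to 0.166 to 0.227 CPM and covers counting error only. The summed level of the members was 275.1 and 296.5 RPKM in the controls and 291.6 and 298.3 RPKM in the USP12 libraries. USP12 alone made up 1.07% and 2.23% of the level per length of USP12 and the members together in the control libraries. In the USP12 libraries its share was 54% and 59.5%, so by this measure USP12 exceeded the 46 members combined. The measure divides by the 5096 annotated exon bases of the native gene, whereas the vector carried a sequence encoding USP12. The share is therefore uncertain in the libraries where the vector supplied USP12.

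After the filter on low counts, 42 of the 46 members were tested among 15222 genes with edgeR's quasi-likelihood test. No member differed between USP12 and control cells at an adjusted p under 0.05, and the same was true of all genes tested (0%). The lowest adjusted p of a member was 0.416, and 1 member had an unadjusted p under 0.05, where 7.59% of all genes tested did. Other tests also called 0 members, namely the replicate block (2.65% of all genes called), the edgeR exact test (2.82%), the DESeq2 Wald test (2.69%) and the fit with no filter on low counts (2.13%). The study's own criterion asks for an unadjusted p not above 0.05 together with a log2 fold change of at least 1 in size, and by it USP41 was the 1 member lower in USP12 cells and 0 members were higher. In the background, 4.41% of all genes tested met the criterion for lower and 2.92% for higher expression. The estimates were split evenly, 21 lower and 21 higher, with a median log2 fold change of -0.04 against -0.06 over all genes tested. A log2 fold change of 1 or more in size was estimated for 5 members (11.9%) and for 17.1% of all genes tested. The median size of the log2 fold change was 0.38 for the members and 0.42 for all genes.

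Both USP12 libraries lay below both control libraries for 2 tested members, USP41 and USP37, where 17% of all genes tested did so. Both lay above for 6 members, USP42, USP3, USP22, USP30, USP49 and USP39, where 19.5% of all genes did so. These shares of the 42 members, in both directions, are below those of all genes in the same fit.

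**Figure D1:**
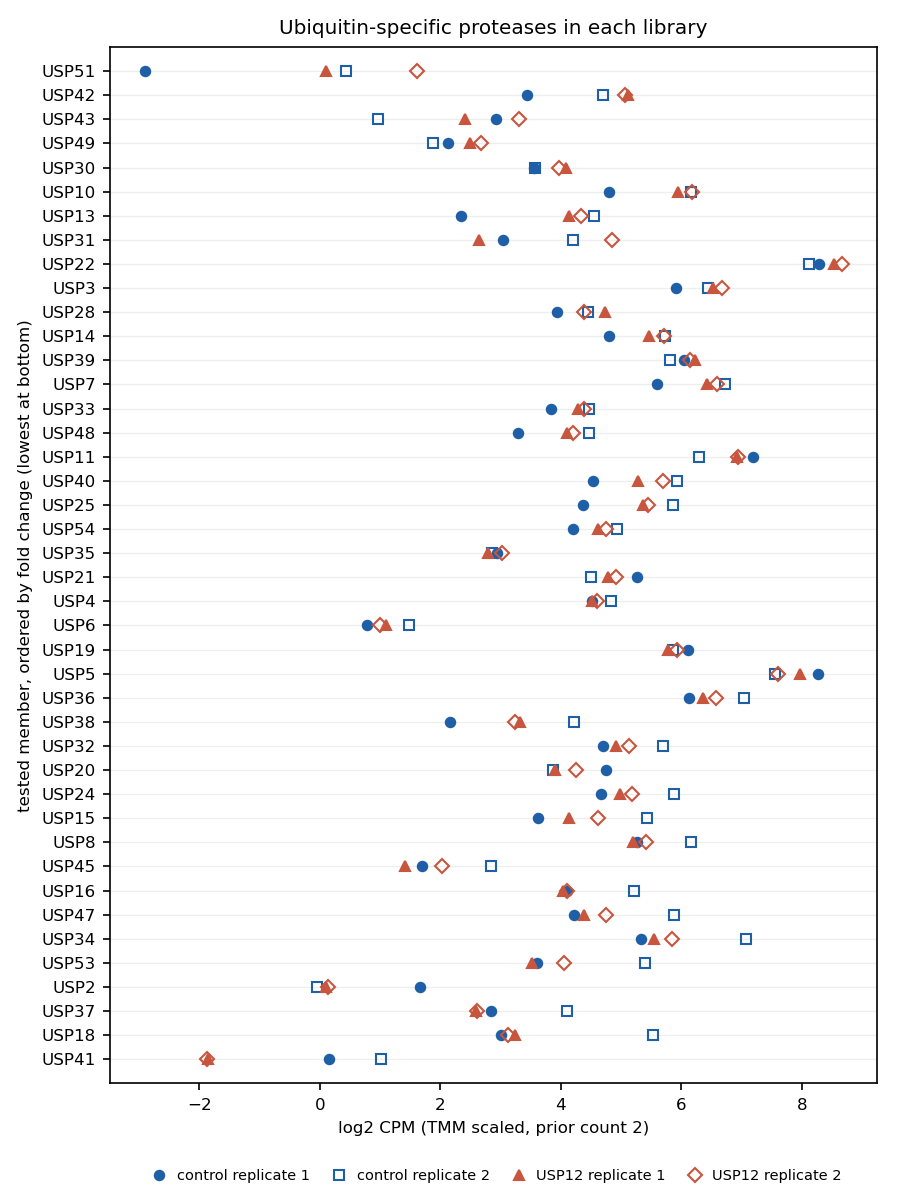
Level of the 42 tested members in each library, as log2 CPM (TMM scaled, prior count 2) on the horizontal axis, with members ordered by log2 fold change from USP41 at the bottom to USP51 at the top. Circles and squares are control replicates 1 and 2, triangles and diamonds USP12 replicates 1 and 2, and in most rows the 2 USP12 symbols lie close together while the 2 control symbols lie apart.

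**Figure D2:**
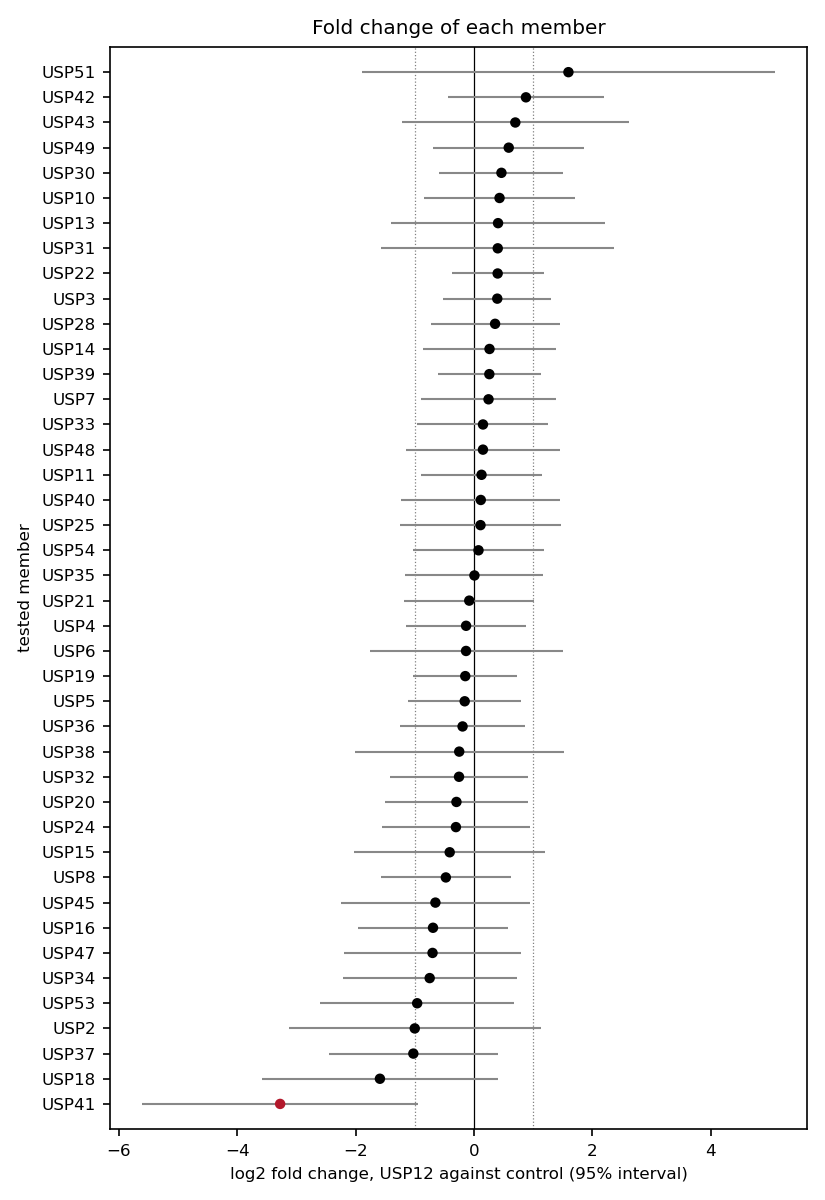
Log2 fold change of each tested member, USP12 against control, with its 95% interval from edgeR's quasi-likelihood fit. The dotted lines mark a log2 fold change of 1 in either direction, the red point is USP41, the member that met the study's criterion, and every other interval includes 0.

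The control libraries differed from each other by more than the USP12 cells differed from the control cells in most members. Control replicate 2 was higher than control replicate 1 in 31 of the 42 members (73.8%), with a median difference of 0.92 in log2 CPM, against 50.5% and 0.01 over all genes tested. The difference was above 1 in 19 members and below -1 in 2 members, USP2 and USP43. The median size of the difference was 1.05 between the controls, against 0.17 between the USP12 replicates. In 37 of the 42 members (88.1%) the log2 fold change was smaller in size than the difference between the control libraries, as it was in 71.3% of all genes.

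The direction of most members rested on which control library was used. When the USP12 libraries were fitted against control replicate 1 alone, the median log2 fold change of the members was 0.38, and against control replicate 2 alone it was -0.22, where all genes had medians of 0.09 and 0.02. The sign differed between the 2 fits in 30 of the 42 members (71.4%) and in 50.5% of all genes fitted both ways. Only 3 members were lower against both controls, USP41, USP37 and USP19, and 9 were higher against both, USP3, USP22, USP28, USP30, USP39, USP42, USP43, USP49 and USP51. USP51 had 0 counts in control replicate 1, so the fits give it a direction against that library but no defined fold. In these fits the single control library is assumed to vary like the pair of USP12 libraries. Without control replicate 1, 7 members were lower at an adjusted p under 0.05 and 0 were higher, namely USP37, USP53, USP8, USP18, USP47, USP34 and USP16, among 10.5% of all genes called. Without control replicate 2, 10 members were higher and 0 were lower, namely USP13, USP42, USP14, USP40, USP51, USP10, USP7, USP3, USP25 and USP38, among 32.2% of all genes called. No member was called in both fits, and 0 were called without USP12 replicate 1 or without USP12 replicate 2, where 0.248% and 0.273% of all genes were.

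**Figure D3:**
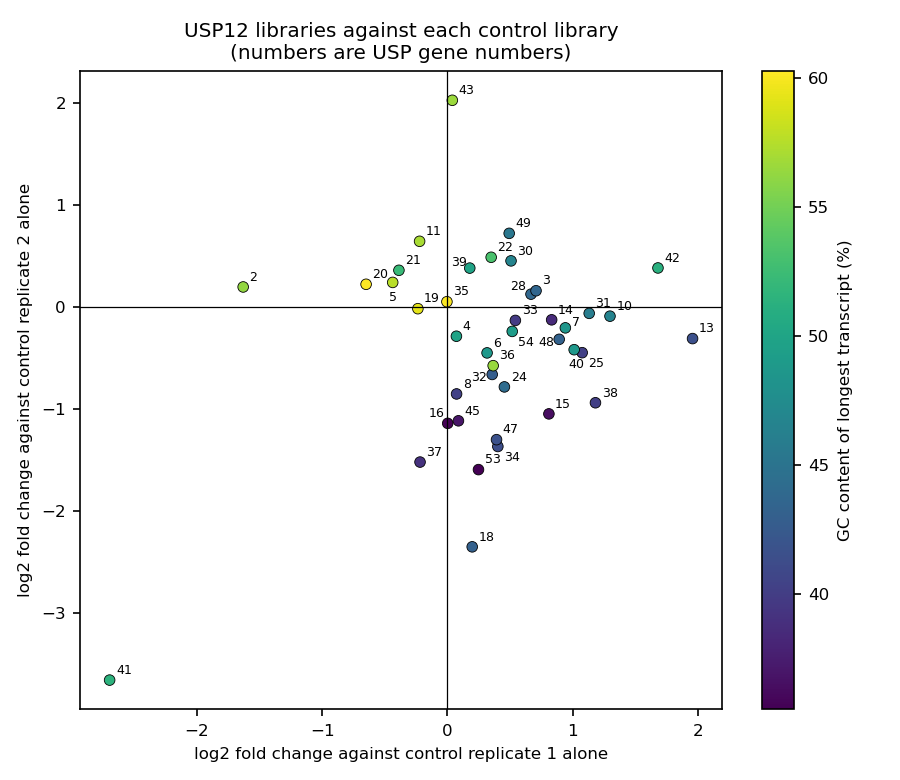
Log2 fold change of each member against control replicate 1 alone (horizontal axis) and control replicate 2 alone (vertical axis), each point a member named by its USP number and coloured by the GC content of its longest transcript. USP51 is left out, since it had 0 counts in control replicate 1. Most points lie in the lower right, higher against the first control and lower against the second, and USP41 lies far below 0 on both axes.

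The difference between the control libraries moved with the base composition of the transcripts, and less closely with their length. Across the 42 members, the difference in log2 CPM between control replicates 2 and 1 had a Pearson correlation of -0.71 with the GC content of the longest annotated transcript, and a Spearman correlation of -0.70. Over the 15094 tested genes with a value, the correlations were -0.54 and -0.59. With the log2 length of that transcript, the difference had a Pearson correlation of 0.35 and a Spearman correlation of 0.46 across the members. Over the same 15094 genes, the correlations with length were 0.26 and 0.32. These are descriptions across genes, which share the same pair of libraries and are not independent replicates. Among the 21 members of lower GC content, between 35.5% and 45.3%, control replicate 2 was higher in 20, and the median log2 fold change was 0.49 against control replicate 1 and -0.78 against control replicate 2. Among the 21 members of higher GC content, between 45.9% and 60.3%, control replicate 2 was higher in 11, and the medians were 0.18 and 0.05. The log2 fold change with all 4 libraries had a Pearson correlation of 0.09 and a Spearman correlation of 0.21 with GC content across the members, against -0.15 and -0.20 over all genes with a value. The members had a median GC content of 45.6% and a median longest transcript of 5140 bases, against 48.4% and 3555 bases over all genes tested. The column heading of control replicate 1 carries a different prefix from those of the other 3 libraries, and what the prefix stands for, and its part in this difference, was not tested.

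**Figure D4:**
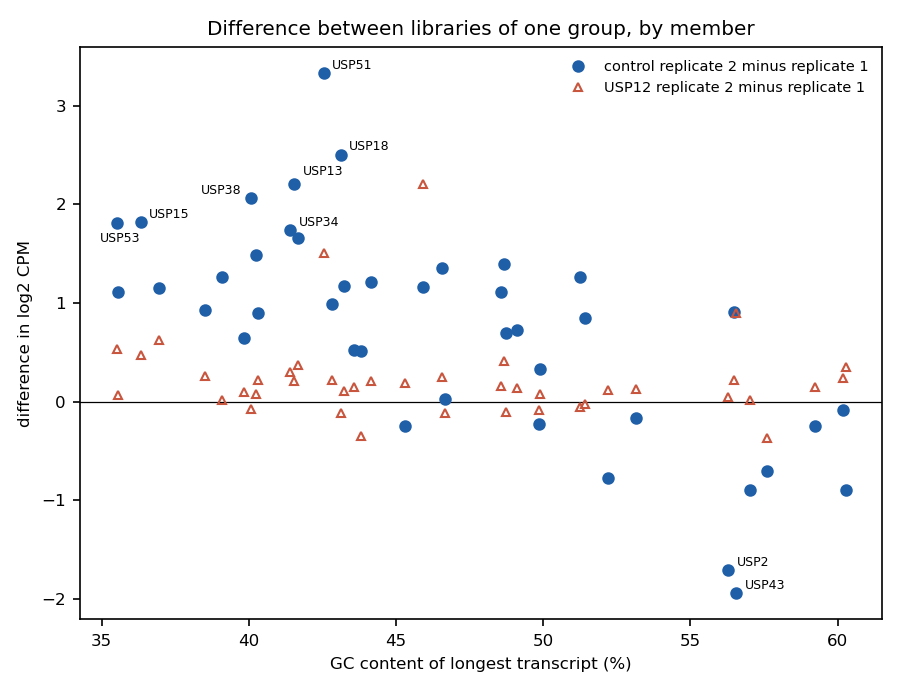
Difference between the 2 libraries of a group in log2 CPM (vertical axis) against the GC content of the longest transcript in percent (horizontal axis), for the 42 tested members. Filled circles are control replicate 2 minus replicate 1 and open triangles USP12 replicate 2 minus replicate 1. The circles fall from above 1 at low GC content to below 0 at high GC content, while most triangles lie near 0, with USP31 and USP51 above 1.

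USP18 removes the ubiquitin-like modifier ISG15 from proteins and restrains signalling at the type I interferon receptor, and USP41 is a partial copy of it on the same chromosome. In GRCh38, USP18 (ENSG00000184979) occupies bases 18150118 to 18177397 of chromosome 22, plus strand. USP41 (ENSG00000161133) lies from 20363621 to 20377251 on the minus strand of the same chromosome, and GENCODE release 44 annotates it as a transcribed unprocessed pseudogene. Of the 8 annotated exons of USP41, 7 have a partner of equal length among the coding exons of USP18, with between 0 and 5 differing bases each. These sequences are shown because they decide which counts can be assigned to either gene. The first line is an exon of 168 bases that is the same in both genes, the next pair has 147 bases with 5 differences, and the last pair 97 bases with 2 differences, which in USP18 encodes the stretch around the catalytic cysteine. All are given 5′ to 3′ on the strand of the gene, from GRCh38 with GENCODE exons, with differing bases in capitals.
USP18, chr22:18170753-18170920, plus strand, and USP41, chr22:20366567-20366734, minus strand: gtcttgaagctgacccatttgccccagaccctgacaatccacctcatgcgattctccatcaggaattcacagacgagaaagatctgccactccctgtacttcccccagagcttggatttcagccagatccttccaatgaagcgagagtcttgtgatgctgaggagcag
USP18, chr22:18167890-18168036, plus strand: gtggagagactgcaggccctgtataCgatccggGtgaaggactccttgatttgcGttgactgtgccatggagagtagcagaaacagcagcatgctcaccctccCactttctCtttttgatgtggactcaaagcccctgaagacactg
USP41, chr22:20369429-20369575, minus strand: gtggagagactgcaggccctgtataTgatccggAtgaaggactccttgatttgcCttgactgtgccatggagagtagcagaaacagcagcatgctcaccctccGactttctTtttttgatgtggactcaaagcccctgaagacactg
USP18, chr22:18160172-18160268, plus strand: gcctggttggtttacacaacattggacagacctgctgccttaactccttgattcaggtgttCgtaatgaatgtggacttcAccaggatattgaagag
USP41, chr22:20377155-20377251, minus strand: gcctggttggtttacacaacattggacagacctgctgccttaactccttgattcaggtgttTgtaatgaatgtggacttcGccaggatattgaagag

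A fragment that lies wholly within the identical exons matches both genes. Since uniquely mapped fragments were counted, such fragments would be left out, so the counts of both genes may be too low and remain uncertain. Exons of another annotated gene on the same strand, ENSG00000290950, overlap those of USP41, and its part in the USP41 counts was not tested. Of the distinct runs of 100 bases in annotated transcripts, 311 are shared, which is 7.52% of those of USP18 and 37.9% of those of USP41.

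USP41 had 13 and 34 counts in control replicates 1 and 2 and 2 counts in each USP12 library. As levels, these are 0.98 and 1.88 CPM against 0.14 and 0.14 CPM, and the USP12 libraries lay below the floor of 3 counts. Scaled by library size, the ratio of its 4 counts with USP12 to its 47 counts in the controls was 0.0939, with an interval from 0.0246 to 0.257 that covers counting error only. The log2 fold change was -3.28 (approximate SE 0.96, n = 2 per group, unadjusted p = 0.0138, adjusted p = 0.416, edgeR). It was -2.70 against control replicate 1 alone and -3.66 against control replicate 2 alone, and USP41 still met the criterion without control replicate 1 but not without control replicate 2, USP12 replicate 1 or USP12 replicate 2.

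USP18 had 7.95 and 45.8 CPM in control replicates 1 and 2 and 9.29 and 8.59 CPM in USP12 replicates 1 and 2. Both USP12 libraries lay close to the first control and far below the second, so the groups overlapped. The log2 fold change was -1.59 (SE 0.82, adjusted p = 0.795 in edgeR), made up of 0.20 against control replicate 1 and -2.35 against control replicate 2 (adjusted p = 0.00260 without control replicate 1, edgeR).

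The genes that attach ISG15, and partners of USP18 at the interferon receptor, were read beside it. ISG15 itself had 17.03 and 65.3 CPM in the controls against 2.16 and 1.11 CPM with USP12, a log2 fold change of -4.65 (SE 0.85, unadjusted p = 0.00144, adjusted p = 0.210, edgeR). ISG15 passed an adjusted p of 0.05 in other fits, with adjusted p = 1.64e-06 in edgeR with the replicate block and 6.24e-05 by edgeR's exact test. The block fit had infinite prior degrees of freedom, against 4.15 without the block, so its spread was set by all genes together. The log2 fold change of ISG15 was -3.35 against control replicate 1 alone and -5.32 against control replicate 2 alone. UBE2L6, the enzyme that conjugates ISG15, had 64.4 and 89.1 CPM against 34.7 and 35.0 CPM (log2 fold change -1.14, SE 0.38, adjusted p = 0.505, edgeR). HERC5, the ISG15 ligase, had 4.54 and 22.9 CPM against 1.94 and 3.74 CPM (log2 fold change -2.27, SE 0.87, adjusted p = 0.600, edgeR). These 3 genes met the study's criterion for lower expression. The log2 fold change of UBE2L6 was -0.86 against control replicate 1 alone and -1.35 against control replicate 2 alone. For HERC5 it was -0.65 and -3.01, so against control replicate 1 both genes were under the criterion's size of 1. Neither gene passed an adjusted p of 0.05 with the replicate block or the exact test. UBA7, the activating enzyme, had 3.48 and 6.48 CPM against 1.296 and 2.216 CPM, and STAT2, the adaptor that brings USP18 to the receptor, had 56.2 and 54.1 CPM against 29.6 and 31.0 CPM. For these 5 genes both USP12 libraries lay below both control libraries, unlike USP18, where 17% of all genes tested did so. Among the 17 listed partners of members, both USP12 libraries lay above both controls for 4, where 19.5% of all genes tested did so. IFNAR2, the receptor chain bound by USP18, had a log2 fold change of 0.11, with levels that overlapped between groups.

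**Figure D5:**
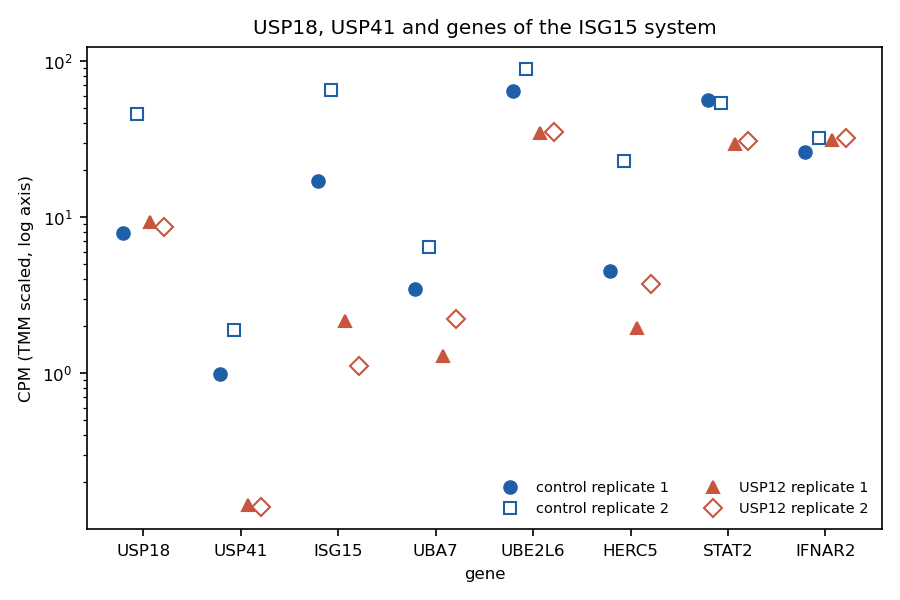
Level of USP18, USP41 and 6 genes of the ISG15 system in each library, in TMM-scaled CPM on a log axis, with circles and squares for control replicates 1 and 2 and triangles and diamonds for USP12 replicates 1 and 2. ISG15, UBA7, UBE2L6, HERC5, STAT2 and USP41 have both USP12 libraries below both control libraries, whereas the USP12 libraries of USP18 lie beside control replicate 1.

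Free ubiquitin chains and the proteasome are served by USP5, USP13 and USP14, of which 1 had a lower and 2 had higher estimates, and none met the criterion. USP5, the most abundant member, lies on chromosome 12 (6852148 to 6866632, plus strand of GRCh38) and had 307 and 188 CPM in the controls against 251 and 194 CPM with USP12. Its log2 fold change was -0.16 (SE 0.39, 95% interval -1.11 to 0.80, adjusted p = 0.976, edgeR), and the USP12 libraries lay between the controls. USP13, the paralog of USP5 with chain-binding but weak cutting activity, was taken up by the study in its screen of deubiquitinases. It had 4.92 and 23.3 CPM in the controls against 17.4 and 20.1 CPM with USP12, a log2 fold change of 0.41 (SE 0.74, adjusted p = 0.967, edgeR). Against control replicate 1 alone its log2 fold change was 1.96 and against control replicate 2 alone it was -0.31. USP14, which trims ubiquitin at the proteasome, had an estimate of 0.26.

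Of the 5 members known for p53, MDM2 or the cell cycle, 2 had lower and 3 higher estimates, with a median of 0.25. USP37, on chromosome 2 (218450251 to 218568351, minus strand), stabilizes cyclin A at the start of DNA replication and had 7.04 and 17.1 CPM in the controls against 5.90 and 5.96 CPM with USP12. The USP12 libraries agreed closely and lay just under the first control (log2 fold change -1.02, SE 0.59, 95% interval -2.46 to 0.41, adjusted p = 0.834, edgeR), and the fold change against that control alone was -0.22. USP2, which deubiquitinates MDM2 and cyclin D1, had 3.03 and 0.83 CPM in the controls against 0.94 and 0.97 CPM with USP12. Here it was the first control that stood apart from the other 3 libraries (log2 fold change -1.0, SE 0.87, adjusted p = 0.923, edgeR). USP10 had 27.7 and 71.2 CPM against 61.1 and 72.5 CPM, a log2 fold change of 0.43 (SE 0.53, adjusted p = 0.945, edgeR), with the first control low. USP7, which acts on both MDM2 and p53, had an estimate of 0.25, and USP28, which stabilizes MYC, of 0.36.

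The members that act on histones, chromatin complexes or the nucleolus numbered 9, and USP44 did not pass the filter. Of the 8 tested, 3 had lower and 5 higher estimates, with a median of 0.40, and 4 of the 6 members with both USP12 libraries above both controls were in this list, where 19.5% of all genes tested lay above in this way. USP42, a deubiquitinase of histone H2B and p53 on chromosome 7 (6104949 to 6161564, plus strand), had 10.7 and 25.9 CPM in the controls against 34.5 and 33.1 CPM with USP12. Both USP12 libraries were above both controls, which themselves differed by more than the second control and the USP12 libraries did (log2 fold change 0.88, SE 0.54, 95% interval -0.44 to 2.20, adjusted p = 0.853, edgeR). USP22 had 310 and 276 CPM against 370 and 404 CPM, one of the few members whose control libraries were close together. Its log2 fold change of 0.40 (SE 0.32, 95% interval -0.38 to 1.18, adjusted p = 0.909, edgeR) was similar against either control, at 0.35 and 0.49. USP49, which removes ubiquitin from histone H2B, had 4.24 and 3.55 CPM against 5.47 and 6.23 CPM (log2 fold change 0.59, SE 0.53, adjusted p = 0.924, edgeR). USP51, a paralog of USP22, had 0 and 22 counts in the controls against 13 and 42 counts with USP12, so the libraries were uneven in both groups and a fold against the first control is not defined (log2 fold change 1.60, SE 1.44, adjusted p = 0.924, edgeR). USP16, a histone H2A deubiquitinase, had 17.03 and 37.0 CPM against 16.3 and 17.1 CPM, with 3 libraries at one level and the second control above them (log2 fold change -0.69, SE 0.52, adjusted p = 0.898, edgeR). USP3, USP21 and USP36 had estimates of 0.40, -0.08 and -0.19. The partners of USP22 in SAGA did not share a direction, with log2 fold changes of 0.04 for ATXN7, -0.13 for ATXN7L3 and 0.45 for ENY2.

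Among the 7 members of TGF-beta, Wnt, NF-κB and innate immune signalling, 4 had lower and 3 higher estimates, with a median of -0.13. USP34, which acts on axin in Wnt signalling, had 40.1 and 134 CPM in the controls against 46.7 and 57.4 CPM with USP12. The second control was the highest of the 4 by a wide margin (log2 fold change -0.75, SE 0.61, adjusted p = 0.912, edgeR). USP25, which the study took up in its screen and which acts on TRAF proteins in innate signalling, had 20.4 and 57.7 CPM against 41.03 and 43.4 CPM, between the controls (log2 fold change 0.11, SE 0.56, 95% interval -1.25 to 1.48, adjusted p = 0.984, edgeR). USP31, linked to NF-κB, had 8.10 and 18.2 CPM against 6.12 and 28.7 CPM, and its USP12 libraries differed by 2.21 in log2 CPM, more than the 1.16 between its controls (log2 fold change 0.40, SE 0.81, adjusted p = 0.970, edgeR). USP11 had 145 and 77.9 CPM against 121 and 122 CPM, with the first control the highest (log2 fold change 0.13, SE 0.42, adjusted p = 0.980, edgeR). USP15, USP4 and USP38 had estimates of -0.41, -0.13 and -0.25, and USP15 had 12.1 CPM in the first control and 43.2 CPM in the second, with the USP12 libraries between them at 17.4 and 24.2 CPM.

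Of the 4 members of DNA repair, 3 had lower estimates and 1 a higher one, with a median of -0.48. USP47, which acts on DNA polymerase beta, had 18.5 and 58.7 CPM in the controls against 20.7 and 26.8 CPM with USP12 (log2 fold change -0.70, SE 0.62, adjusted p = 0.924, edgeR). As with USP34, the second control alone was high, and the fold change was 0.39 against the first control and -1.302 against the second. USP45 and USP24 had estimates of -0.65 and -0.30, and USP48 of 0.15.

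All 5 members of endosomes and membrane traffic were tested, with 4 lower estimates and 1 higher and a median of -0.25. USP8, which deubiquitinates receptors such as EGFR on endosomes, had 38.4 and 71.6 CPM in the controls against 36.6 and 42.5 CPM with USP12, an estimate of -0.47. The estimates of USP20, USP32, USP6 and USP33 lay between -0.30 and 0.15. STAM, an endosomal partner of USP8, had a log2 fold change of 0.61 with both USP12 libraries above both controls, and STAM2 one of -0.40 with overlapping groups.

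At mitochondria and the endoplasmic reticulum, USP30, USP19 and USP35 had estimates of 0.47, -0.15 and 0.01. USP30, which opposes parkin in the removal of mitochondria, had 11.6 and 11.8 CPM in the controls against 16.8 and 15.5 CPM with USP12. Its control libraries were the closest of all tested members, and the gap between the groups was larger than the spread within either (log2 fold change 0.47, SE 0.43, 95% interval -0.58 to 1.51, adjusted p = 0.925, edgeR). USP30-AS1 lies opposite to it on the other strand, as USP2-AS1 and USP3-AS1 do for USP2 and USP3, and the libraries were made with a stranded kit, but the sources used here do not state whether strand was used in counting, so the antisense share of these counts is uncertain.

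USP39, USP50, USP53 and USP54 were listed together as members of the splicing machinery or described as inactive, a grouping used only to order the account. Their activity was not measured. USP39 had 65.6 and 55.9 CPM in the controls against 75.0 and 70.6 CPM with USP12, all 4 within a narrow range (log2 fold change 0.26, SE 0.36, 95% interval -0.61 to 1.13, adjusted p = 0.954, edgeR). USP53, a protein of tight junctions that the study took up in its screen, had 11.96 and 42.2 CPM against 11.4 and 16.5 CPM. Once more the second control stood apart (log2 fold change -0.96, SE 0.67, adjusted p = 0.887, edgeR), with fold changes of 0.25 against the first control and -1.60 against the second. USP54 had an estimate of 0.08. USP50 was not tested, with 0 and 4 counts in the controls and 0 with USP12, and its locus overlaps USP8 on the opposite strand.

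USP43 had 7.42 and 1.83 CPM in the controls against 5.18 and 9.77 CPM with USP12 (log2 fold change 0.70, SE 0.79, adjusted p = 0.942, edgeR), with the second control low where it was high for most members. USP40 had an estimate of 0.12. The germ line genes USP26 and USP29 had 4 counts or fewer over all libraries, namely 2, 1, 0 and 1 counts and 1, 0, 0 and 0 counts in control replicates 1 and 2 and USP12 replicates 1 and 2. USP44, a regulator of the spindle checkpoint, had 16, 7, 3 and 4 counts in that order. These 3 genes and USP50 did not pass the filter, and differences in them were not detectable at this depth.

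Paralogs within the family differed widely in level. Of the 15 pairs examined, USP22 was 184 times as abundant per length as USP51, and USP5 was 58.8 times as abundant as USP13. These are ratios of means over the 4 libraries, and they varied between libraries. USP51 ranged from 0 to 0.63 RPKM and USP13 from 0.32 to 1.52 RPKM, both lowest in control replicate 1. USP16 and USP45 had like estimates of -0.69 and -0.65, and their control libraries also differed alike, by 1.11 and 1.15 in log2 CPM. USP36 and USP42 had estimates of -0.19 and 0.88, and USP53 and USP54 of -0.96 and 0.08, but these differences between genes were not tested. Apart from USP18 and USP41, USP6 and USP32 shared 226 runs of 100 bases, 1.86% of those of USP6 and 2.31% of those of USP32. Fragments within these runs may be missing from their counts, which are uncertain to that extent. The other 13 pairs shared 0 runs.

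Deubiquitinases other than the members, among them USP9X, USP27X, CYLD and the OTU, UCH, JAMM and Josephin enzymes, were read from the same fit. Of the 39 listed, 37 were tested, 0 met the criterion in either direction, 21 had lower and 16 higher estimates, and the median log2 fold change was -0.13. Both USP12 libraries lay below both controls for 6 of them, where 17% of all genes tested did so, and above for 4, where 19.5% did so. Control replicate 2 exceeded control replicate 1 here as well, by a median of 0.67 in log2 CPM, against 0.92 for the members. Among all 17 listed partners of members, 3 met the criterion for lower expression, the ISG15, UBE2L6 and HERC5 named above, and 0 for higher, where 4.41% and 2.92% of all genes tested did so. GMPS, which binds USP7, had 43.3 and 91.4 CPM in the controls against 109 and 111 CPM with USP12, with both above both controls and a log2 fold change of 0.70 (adjusted p = 0.867, edgeR).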

How the data were processed

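Seqtk served the authors for trimming and for removing ribosomal reads, HISAT2 2.0.4 for mapping to GRCh38 and StringTie 1.3.0 for counting uniquely mapped fragments. The deposited values are raw counts per gene, and the gene annotation and whether counting used strand are not given in the sources used here. The comparison was run with edgeR 4.0.16 in R 4.3.3 (filterByExpr, TMM, quasi-likelihood test, Benjamini-Hochberg adjustment over 15222 genes) on 2 control and 2 USP12 libraries without a block. The fit had 4.15 prior and 2 residual degrees of freedom. Fits with the replicate block or with no filter on low counts had infinite prior degrees of freedom, so their spread was set by all genes together. Standard errors were approximated from the F statistic and the fold change. Log2 CPM used a prior count of 2, and RPKM the exon lengths of GENCODE release 44, which held all 46 members. The steps were tested on simulated counts. The members and gene lists were chosen with earlier results of these data known. Members named with full values were the 8 lowest and 8 highest fold changes, any that met the study's criterion, the 5 highest levels per length, and USP13, USP25 and USP53. Partners and other deubiquitinases were named when they met the criterion, and further ones after their values were seen. As alternatives, size factors or the Wald test of DESeq2 1.42.0, edgeR's exact test, a block on replicate number, a filter at 10 counts in each library or none, and fits with 1 library left out were used. A GC content offset (a spline of 5 degrees of freedom per library), alone and with the block, was added after seeing the data. The result of 1 listed gene is not reported here.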

Additional observations from a re-analysis of the deposited data

How the results depend on the processing

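Only USP41 met the study's criterion for lower expression, and the count of such members was 2 by the Wald test of DESeq2 and also with every gene kept (USP18 and USP41), 2 with the GC content offset (USP37 and USP41), and 0 where each library had to hold at least 10 counts, since USP41 was not tested. Leaving out 1 library gave 0 to 9 lower members, 0 to 7 higher members and 0 to 10 members at an adjusted p under 0.05, against 1, 0 and 0. The extremes came from the controls: without control replicate 1 there were 9 lower and 1 higher, without control replicate 2 there were 1 lower, which was USP2 and not USP41, and 7 higher. The other deubiquitinases had 0 lower and 0 higher with all libraries, 1 lower with the GC content offset (OTUD6B), and 0 to 5 lower and 0 to 5 higher with a library left out. The median log2 fold change of the members ranged from -0.22 to 0.37 with a library left out. The log2 fold change of USP12 was 6.32 (adjusted p = 0.0975, edgeR), and it passed the threshold with no filter (6.33), the Wald test of DESeq2 (6.31), edgeR's exact test (6.32), the block on replicate number (6.43), the offset for GC content (6.34), block and offset together (6.34) and with each library left out (5.86 to 7.06). It did not pass with DESeq2's size factors (adjusted p = 0.0941, edgeR) or with the filter at 10 counts (adjusted p = 0.0902, edgeR).

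With a library left out, the log2 fold change changed sign for 12 of the 21 named members, with ranges of -2.35 to 0.20 for USP18, -1.63 to 0.20 for USP2, -1.60 to 0.25 for USP53, -1.37 to 0.40 for USP34, -1.302 to 0.39 for USP47, -1.14 to 0.0028 for USP16, -1.12 to 1.14 for USP31, -0.31 to 1.96 for USP13, -0.090 to 1.298 for USP10, -0.44 to 0.24 for USP5, -0.22 to 0.64 for USP11 and -0.45 to 1.08 for USP25. With the GC content offset USP5 was at 0.082, and with block and offset together USP5 was at 0.071 and USP31 at -0.059. Under DESeq2's size factors, no filter, the Wald test, the exact test and the block, 0 of the 21 named members changed sign, and 0 of the 19 that held at least 10 counts in each library. The cause of these changes was not tested. The groups share replicate numbers 1 and 2, and the deviations of same-numbered libraries had a correlation of 0.152 across genes, too few pairs to treat the libraries as paired. The replicate block called 404 of all genes (2.65%) and 0 members, the exact test 429 (2.82%) and 0 members, the Wald test 410 (2.69%) and 0 members, and no filter 528 (2.13%) and 0 members, where the test with all libraries and no block called 0 genes. The block moved the median of the members to 0.05. Depth limits USP41, USP51 and the 4 members that were not tested.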

Other observations

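Genes of the ubiquitin supply on which the members act were read from the same fit. UBB, a ubiquitin gene, had 760.8 and 312.8 CPM in the controls against 412.2 and 375.6 CPM with USP12. UBA1, the main activating enzyme, had 470.4 and 321.8 CPM against 539.9 and 467.8 CPM. The groups overlapped for both genes, and neither met the criterion.

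Among the other deubiquitinases, chosen after their values were seen, BAP1, which removes ubiquitin from histone H2A, had 74.6 and 38.1 CPM in the controls against 35.4 and 37.5 CPM with USP12 (log2 fold change -0.63, adjusted p = 0.892, edgeR). TNFAIP3, a brake on NF-κB signalling, had 13.9 and 12.4 CPM against 9.36 and 7.76 CPM (log2 fold change -0.62, adjusted p = 0.894, edgeR). STAMBPL1, a JAMM protease of endosomes, had 5.90 and 6.48 CPM against 11.5 and 9.77 CPM (log2 fold change 0.78, adjusted p = 0.849, edgeR), with both USP12 libraries above both controls.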
